A study of Mus musculus with 6 samples.

Results

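Transcripts of 10 acute inflammation and granulocyte genes were described in the dorsolateral prostate of TRAMP mice that received OSU-CG5 or vehicle. The 10 genes were S100a8, S100a9, Lcn2, Saa1, Saa2, Saa3, Il1b, Ptgs2, Csf3r and Nos2, taken by symbol. Every probe set that the array annotation assigns to exactly 1 of them was used, which gave 10 of 18193 named genes and 12 of the 45037 probe sets on the array, besides the controls. Ptgs2 and Saa1 had a pair of probe sets each and the other genes a single probe set.

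All animals were intact male TRAMP mice of a C57BL/6 TRAMP by FvB F1 cross. The TRAMP transgene drives the SV40 T antigens from a probasin promoter in the prostate epithelium, and both groups carried it, so no group without the transgene was measured. OSU-CG5, known by this code name and reported before to mimic energy restriction in cells, was given by oral gavage at 100 mg/kg per day for 4 weeks, from 6 to 10 weeks of age, and controls received vehicle. Mice were killed 2 to 4 h after their final dose, and 1 Affymetrix array was measured for each of 3 mice per group. The free-text descriptions of the treated arrays of replicates 2 and 3 name the compound with another number, and the group was taken from the tissue source label, which names OSU-CG5 for all of them.

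These genes mark the first hours of inflammation and the arrival of neutrophils. S100a8 and S100a9 encode the partner chains of calprotectin, an abundant cytosolic protein of neutrophils, and Csf3r is the receptor through which G-CSF drives neutrophil production. Interleukin 1 beta (Il1b) acts through the NF-kB and C/EBP transcription factors on epithelium and stroma, which answer with the iron-sequestering lipocalin Lcn2, the serum amyloid A proteins Saa1, Saa2 and Saa3, the prostaglandin-forming enzyme Ptgs2 and the inducible nitric oxide synthase Nos2. In the prostate such genes are known for their induction in bacterial and immune prostatitis.

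Most members read low in both groups and no difference between the groups passed the test. With limma and Benjamini-Hochberg adjustment, 0 of the 12 member probe sets passed at 0.05, and 0% of all 45037 probe sets did. At an unadjusted p under 0.05 there was 1 member probe set, that of Saa2, which read lower with OSU-CG5, against 16.4% of all probe sets in either direction with 9.63% higher and 6.8% lower. The differences ran from -0.49 to 0.15 on the log2 scale (OSU-CG5 minus vehicle), and 11 of the 12 probe sets were below 0, as were 60.5% of all probe sets.

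**Figure D1:**
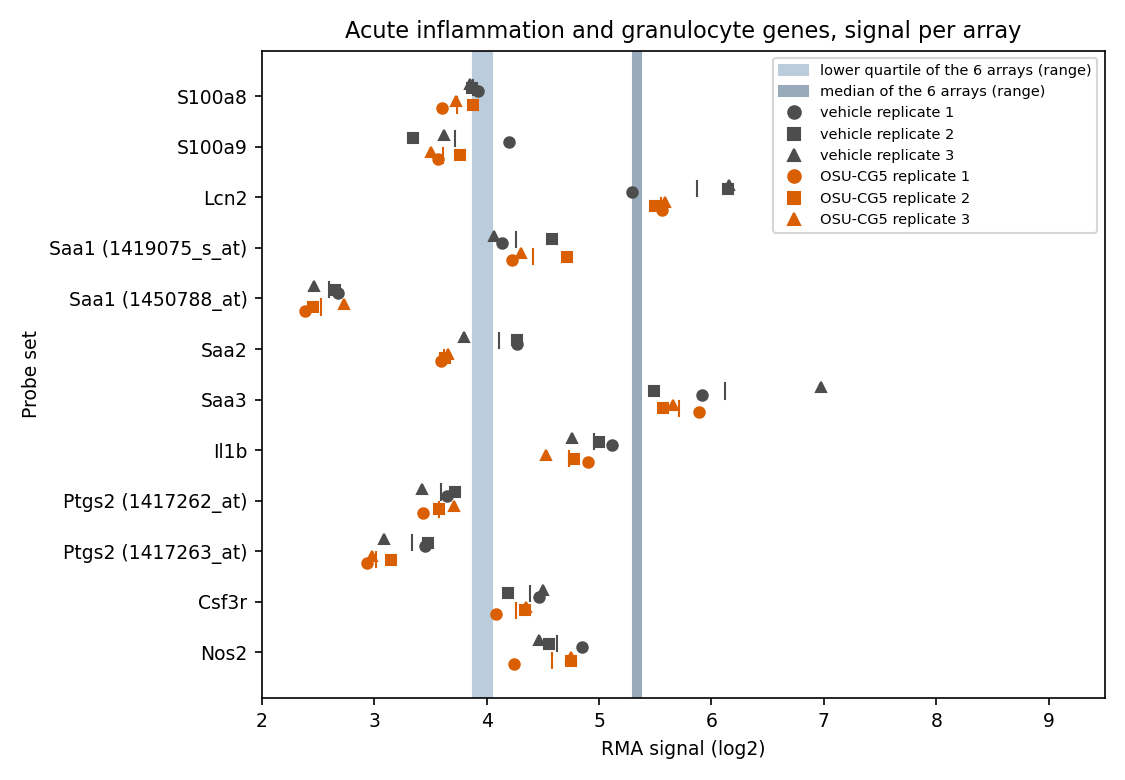
RMA signal on the log2 scale (x axis) for each of the 12 member probe sets (y axis); each point is 1 array, short vertical lines are group means (n = 3), and the shaded bands are the ranges of the 6 arrays' lower quartiles and medians over all probe sets. Saa3 lies to the right of the median band on every array and Lcn2 on all but vehicle replicate 1, while the other 10 probe sets lie to its left.

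The array scale gives the level its context. The median over all probe sets was 5.30 to 5.38 on the 6 arrays and the lower quartile 3.87 to 4.05. The probe sets of 8 genes lay below the median on all 6 arrays, and Lcn2 did so on 1 array. S100a8, both probe sets of Ptgs2 and 1 probe set of Saa1 lay below the lower quartile on all 6. No member had a mean of log2 6 or more over the arrays. Probe sets differ in how strongly they bind, so these positions do not rank the transcripts against each other. Detection calls were not used here, and near the bottom of the scale a difference in transcript can be understated.

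Among the neutrophil genes, S100a8 (probe set 1419394_s_at) read 3.92, 3.87 and 3.86 in the vehicle arrays and 3.60, 3.88 and 3.72 in the OSU-CG5 arrays (log2). The groups overlapped through OSU-CG5 replicate 2. Its difference was -0.15 (SE 0.12, 95% interval -0.42 to 0.12; limma adjusted p = 0.551). The s in the name of the S100a8 probe set is the maker's mark for probes that can bind related transcripts, which was not checked here. S100a9 (1448756_at) read 4.19, 3.35 and 3.62 in vehicle and 3.56, 3.76 and 3.51 with OSU-CG5. Vehicle replicate 1 was the highest and vehicle replicate 2 the lowest of the 6, so the whole treated group lay inside the vehicle range. The difference was -0.11 (SE 0.21, interval -0.59 to 0.37; limma adjusted p = 0.813), and it was 0.13 without vehicle replicate 1. Vehicle replicate 1 was also the highest array for the partner S100a8, by a small margin, since S100a8 spanned only 3.86 to 3.92 across vehicle. Csf3r (1418806_at) read 4.47, 4.19 and 4.5 in vehicle and 4.08, 4.34 and 4.35 with OSU-CG5, and these ranges overlapped. Its difference was -0.13 (SE 0.14, interval -0.44 to 0.19; limma adjusted p = 0.663).

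The defining markers of neutrophils were low as well. Of 9 markers 8 were measured, the granule proteins Mpo, Elane, Camp, Ltf, Ngp and Mmp8, the chemokine receptor Cxcr2 and the surface protein Cd177, and Ly6g was not analysed here. On all 6 arrays 6 of the 8 lay below the array median, and Elane and Ngp did so on 5. Their mean signal was 4.25 to 4.42 in vehicle and 4.04 to 4.31 with OSU-CG5 (log2), ranges that overlapped. Of the 8 differences 7 were below 0, as were 79.4% of the genes with a mean under log2 6, where all 8 lay. By contrast the 9 measured markers of prostate luminal epithelium, such as Pbsn, Msmb, Foxa1 and Krt8, averaged 11.62 to 11.75 in vehicle and 11.52 to 11.68 with OSU-CG5, so the markers of the labelled tissue were high on every array. In whole tissue, fewer cells of a type and less RNA per cell cannot be told apart.

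**Figure D2:**
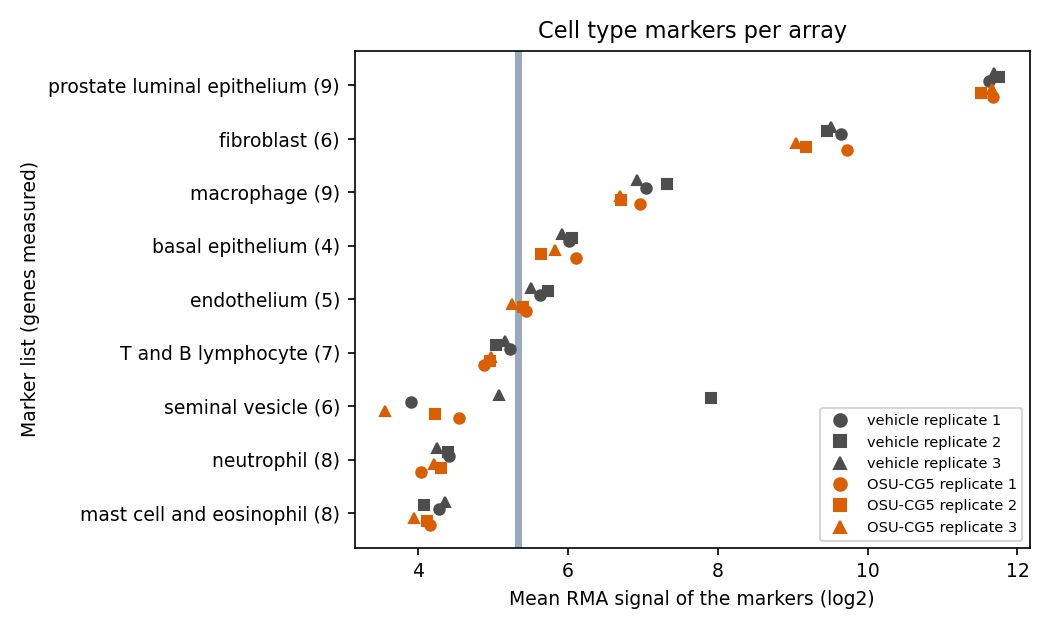
Mean RMA signal (log2, x axis) of 9 cell type marker lists (y axis, with the number of genes measured) on each array; each point is 1 array and the shaded band is the range of the array medians. Neutrophil markers average 4.04 to 4.42 and luminal epithelial markers 11.52 to 11.75, and the seminal vesicle markers of vehicle replicate 2 stand at 7.91.

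Some measures of the arrays themselves also varied. Across probe sets, vehicle replicate 2 correlated with the rest at a Pearson r of 0.966 to 0.981, and all pairs without it at 0.987 to 0.995. The mean of 6 seminal vesicle transcripts was 7.91 on that array, 5.08 on vehicle replicate 3 and between 3.56 and 4.55 elsewhere. The 3' minus 5' signal of Gapdh, which grows as RNA degrades, averaged 2.39 ± 0.32 over the vehicle arrays and 2.89 ± 0.16 over the treated ones (log2, SD, n = 3). The part of these in the member differences was not tested.

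Lcn2 and Saa3 were the members with signal near or above the array median. Lcn2 (1427747_a_at), an antibacterial protein secreted by epithelia and stored in neutrophil granules, read 5.29, 6.15 and 6.16 in vehicle and 5.56, 5.50 and 5.59 with OSU-CG5. Vehicle replicates 2 and 3 stood above all treated arrays and vehicle replicate 1 below them. The treated arrays lay close together (5.55 ± 0.045, SD, n = 3), and vehicle spread more widely (5.87 ± 0.50, n = 3). The difference was -0.32 (SE 0.23, interval -0.83 to 0.20; limma adjusted p = 0.497). It was -0.61 without vehicle replicate 1, and -0.18 and -0.17 without vehicle replicates 2 and 3, and the adjusted p stayed above the threshold in each of these fits. The arrays with the highest Lcn2 were also those with the highest seminal vesicle signal, 7.91 and 5.08, and the part of that tissue in the Lcn2 signal was not tested.

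Saa3 (1450826_a_at), the serum amyloid A form made by macrophages and epithelium outside the liver, read 5.91, 5.49 and 6.97 in vehicle and 5.89, 5.57 and 5.66 with OSU-CG5. Vehicle replicate 3 stood apart from the other 5 arrays, and vehicle replicate 2 was the lowest of all. The spread in vehicle was 0.76 (SD, n = 3) against 0.17 with OSU-CG5, and the median SD over all probe sets was 0.18 and 0.13. The difference of -0.42 (SE 0.33, interval -1.17 to 0.34; limma adjusted p = 0.547) became 0.0073 without vehicle replicate 3 and -0.74 without vehicle replicate 2, so its size rested on single vehicle arrays. Vehicle replicate 3 held the highest value of 3 of the 12 probe sets, those of Saa3, Lcn2 and Csf3r, and vehicle replicate 1 that of 5.

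Saa1 and Saa2 encode the acute phase serum amyloid A proteins of the liver and of inflamed epithelia, and they are near-identical copies that lie beside each other on chromosome 7 in opposite directions. How alike they are is shown by the 250 bases before each gene's start (RefSeq, GRCm38.p6, 5′ to 3′ on the gene's strand). Saa1 is at chr7:46742981-46743230, minus strand, and Saa2 at chr7:46751583-46751832, plus strand, and capitals mark the bases that differ or are unpaired between them.
Saa1: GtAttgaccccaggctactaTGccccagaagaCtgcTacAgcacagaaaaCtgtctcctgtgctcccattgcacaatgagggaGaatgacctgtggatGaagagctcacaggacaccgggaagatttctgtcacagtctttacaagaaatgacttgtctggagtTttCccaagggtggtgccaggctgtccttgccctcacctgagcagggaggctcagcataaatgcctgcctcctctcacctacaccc
Saa2: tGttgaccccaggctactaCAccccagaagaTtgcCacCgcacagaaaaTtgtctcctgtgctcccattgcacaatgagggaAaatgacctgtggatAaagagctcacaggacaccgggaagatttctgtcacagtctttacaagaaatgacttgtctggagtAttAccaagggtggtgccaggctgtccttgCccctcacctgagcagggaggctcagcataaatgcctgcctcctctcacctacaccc
The aligned stretches shared 238 bases over an alignment of 251, or 94.8%. These are promoter bases and not the probes, whose sequences were not used here. Transcript sequences were not compared here either. Annotation sources differ for the probe set 1419075_s_at: it is assigned to Saa1, while RefSeq now gives the transcript it was designed on to Saa2. That is the same transcript as that of the Saa2 probe set 1449326_x_at. The s and x in these names are the maker's marks for probes that can bind related transcripts, so neither reading can be given to Saa1 or Saa2 with certainty.

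The Saa2 probe set (1449326_x_at) read 4.27, 4.27 and 3.80 in vehicle and 3.59, 3.63 and 3.65 with OSU-CG5. All treated arrays lay below all vehicle arrays, and Saa2 was the single member whose groups did not overlap. Among all probe sets 11.9% were lower without overlap and 11.7% higher, so a single case in 12 is close to the background. The signal was 1.40-fold lower with OSU-CG5, a log2 difference of -0.49 (SE 0.15, interval -0.84 to -0.14; unadjusted p = 0.0114), and it did not pass adjustment (limma adjusted p = 0.206). Over its alternatives the adjusted p ran from 0.0489 to 0.461, and the low end, the single fit in which it passed, was that without vehicle replicate 3, with a difference of -0.65.

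The probe sets assigned to Saa1 did not follow it. The brighter, 1419075_s_at, read 4.14, 4.58 and 4.06 in vehicle and 4.22, 4.72 and 4.31 with OSU-CG5, a difference of 0.15 (SE 0.19, interval -0.27 to 0.58; limma adjusted p = 0.693). It was the single member probe set above 0, although its design transcript is that of the Saa2 probe set. Its difference was 0.0040 without OSU-CG5 replicate 2 and 0.31 without vehicle replicate 2. The other, 1450788_at, designed on the transcript RefSeq gives to Saa1, read 2.68, 2.65 and 2.47 in vehicle and 2.38, 2.46 and 2.73 with OSU-CG5. Its values were the lowest of any member probe set on each array, and its difference was -0.077 (SE 0.14, interval -0.39 to 0.23; limma adjusted p = 0.797). Of the 3 probe sets of this near-identical pair, 1449326_x_at thus separated the groups, and 1419075_s_at, with the same design transcript, did not. Nor did 1450788_at, and none of the 3 passed adjustment.

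Il1b (1449399_a_at), the cytokine at the head of this response, read 5.11, 5.0 and 4.76 in vehicle and 4.90, 4.77 and 4.53 with OSU-CG5. Vehicle replicates 1 and 2 were above every treated array, and vehicle replicate 3 was below the upper pair of them. The difference was -0.22 (SE 0.15, interval -0.56 to 0.11; limma adjusted p = 0.467).

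Ptgs2 makes the prostaglandin precursor in inflamed tissue and is the target of anti-inflammatory drugs. Its probe set 1417262_at read 3.65, 3.72 and 3.42 in vehicle and 3.43, 3.58 and 3.71 with OSU-CG5, a difference of -0.023 (SE 0.13, interval -0.33 to 0.28; limma adjusted p = 0.944). The groups covered the same range. The other probe set, 1417263_at, read 3.45, 3.48 and 3.09 in vehicle and 2.93, 3.15 and 2.98 with OSU-CG5. It overlapped only through vehicle replicate 3 and OSU-CG5 replicate 2, and differed by -0.32 (SE 0.14, interval -0.65 to 0.0093; limma adjusted p = 0.314). Both were designed on the same transcript, and both lay in the lower quartile of every array.

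Nos2 (1420393_at), which makes nitric oxide in activated macrophages, read 4.85, 4.55 and 4.47 in vehicle and 4.24, 4.75 and 4.75 with OSU-CG5. OSU-CG5 replicate 1 was the lowest array and vehicle replicate 1 the highest, and the rest were mixed. The difference was -0.040 (SE 0.18, interval -0.44 to 0.36; limma adjusted p = 0.925), and it turned to 0.13 without OSU-CG5 replicate 1, to 0.072 without vehicle replicate 1 and to 0.058 with cyclic loess normalization.

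**Figure D3:**
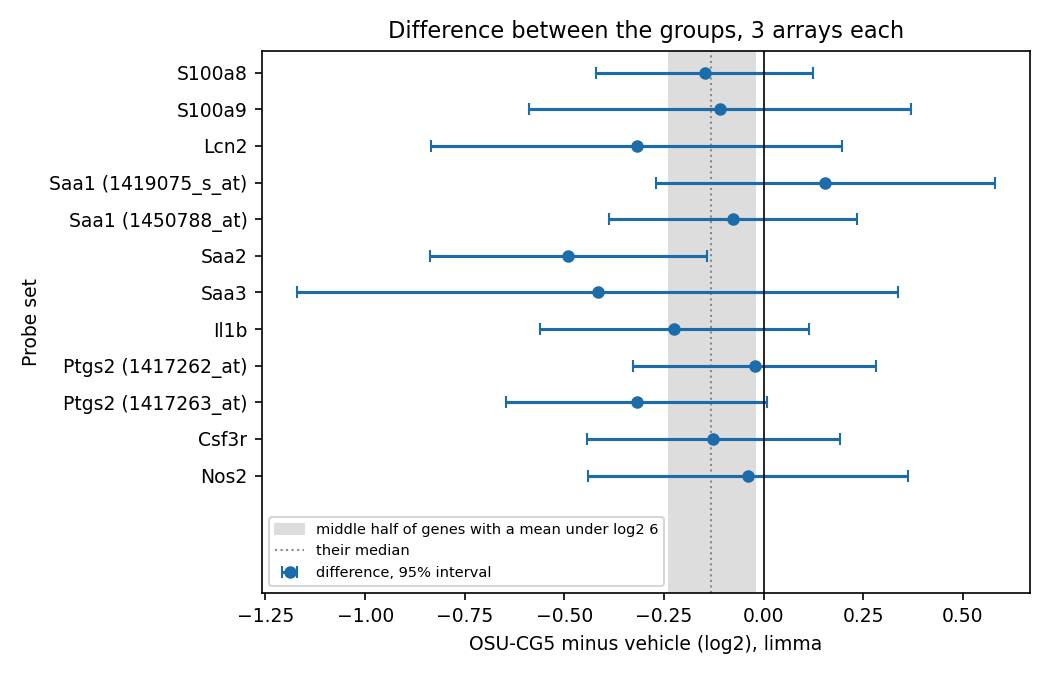
Log2 difference, OSU-CG5 minus vehicle (x axis), for the 12 member probe sets (y axis) with limma's 95% intervals, 3 arrays per group; the grey band spans the 25th to 75th percentile, and the dotted line the median, of genes whose brightest probe set averaged under log2 6. The interval of Saa2 ends at -0.14, below 0, and the intervals of the other 11 probe sets include 0.

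The intervals show what the 3 arrays per group could and could not exclude on this signal scale. For S100a8 the interval reached from 1.34-fold lower to 1.09-fold higher with OSU-CG5. For Saa3 it reached from 2.25-fold lower to 1.26-fold higher, and for Lcn2 from 1.78-fold lower to 1.15-fold higher. The highest upper bound among the members was 1.5-fold, for the Saa1 probe set 1419075_s_at. An adjusted p above the threshold does not show that the groups were alike.

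As a group the members lay where other genes with a mean under log2 6 lay. With each gene taken at its probe set of highest mean, 9 of the 10 members were below 0, with a median log2 difference of -0.14. Over all 18193 genes taken the same way, 65.7% were below 0 and the median was -0.086. Over the 8566 genes with a mean under log2 6, the range that holds every member, 79.4% were below 0 and the median was -0.13. The mean of the 10 members was 4.58, 4.52 and 4.56 on the vehicle arrays and 4.31, 4.45 and 4.38 on the OSU-CG5 arrays. The mean of those 8566 genes was 4.47, 4.48 and 4.38 in vehicle and 4.28, 4.36 and 4.34 with OSU-CG5, so here too every treated array lay below every vehicle array. Vehicle arrays held the highest value for 10 of the 12 member probe sets and the lowest for 5. OSU-CG5 arrays held the highest for 2 and the lowest for 7, and 6 of those 7 were on OSU-CG5 replicate 1. This count was not made over all probe sets.

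Genes beside the members in these pathways were read from 5 lists, each gene at its brightest probe set. Among all 18193 genes 13.8% had an unadjusted p under 0.05, 5.4% higher and 8.43% lower. Adjustment was passed by 0% of them and by 0 genes of the 5 lists. Of all genes 65.7% were below 0, as were 79.4% of those with a mean under log2 6. Of 30 genes of neutrophil granules, receptors and surface 24 were measured and 22 were below 0, with a median of -0.25. Unadjusted, 4 had a p under 0.05 and were lower, and 0 were higher. Without overlap of the groups 5 were lower and 1 was higher, the granule protein Mmp8, by 0.26 (SE 0.14). Among all genes 14.2% were lower without overlap and 8.1% higher. The integrin chain Itgb2 differed by -0.42 (SE 0.14; limma adjusted p = 0.221) and the NADPH oxidase subunit Ncf4 by -0.44 (SE 0.14; adjusted p = 0.218), without overlap of the groups, and the lectin receptor Clec4d by -0.48 (SE 0.17), with overlap. Macrophages also carry these 3. Of 9 macrophage markers 8 were below 0, with a median of -0.38, and 3 lower and 1 higher had an unadjusted p under 0.05. The mean of the 9 was 6.92 to 7.32 in vehicle and 6.70 to 6.96 with OSU-CG5, ranges that overlapped. Markers of lymphocytes, 6 of 7 of them below 0, had a mean of 5.04 to 5.22 in vehicle and 4.88 to 4.97 with OSU-CG5, without overlap. The mean of all 18193 genes, 6.38 to 6.45 in vehicle and 6.35 to 6.36 with OSU-CG5, did not overlap either. The part of macrophages or lymphocytes in these differences was not tested. The granule enzyme Mpo, found in neutrophils and little elsewhere, differed by -0.18 (SE 0.18) and the growth factor Csf3, the ligand of Csf3r, by -0.14 (SE 0.14).

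The other acute phase genes had a median of -0.12, with 16 of 17 below 0. A mean under log2 6 was held by 14 of the 17, and 79.4% of all such genes were below 0. Unadjusted, 3 lower genes and 0 higher ones had a p under 0.05. The protease inhibitor Serpina3n read 5.49 ± 0.29 in vehicle and 4.98 ± 0.17 in the treated group (log2, mean ± SD, n = 3), a difference of -0.51 (SE 0.17; limma adjusted p = 0.224). The pattern recognition protein Ptx3 differed by -0.34 (SE 0.12) and the lipopolysaccharide binding protein Lbp by -0.29 (SE 0.12). For all 3, named for their small p, the groups did not overlap. Over the 17 genes measured, 4 were lower without overlap and 1 was higher. Among all genes 14.2% were lower without overlap and 8.1% were higher.

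Of 37 genes of IL-1, Toll-like receptor and NF-kB signalling 34 were measured. They were spread to both sides of 0, with 22 below, 12 above and a median of -0.13, and 3 lower genes and 1 higher gene had an unadjusted p under 0.05. The adhesion molecule Icam1, an NF-kB target that binds leukocytes on endothelium, read 5.02 ± 0.10 in vehicle and 4.33 ± 0.37 with OSU-CG5. Its difference was -0.69 (SE 0.18; limma adjusted p = 0.177). The NF-kB subunit Relb differed by -0.52 (SE 0.15) and the kinase Ikbkb, which releases NF-kB from its inhibitor, by 0.34 (SE 0.12), each without overlap. The cytokines Tnf and Il6 differed by -0.15 (SE 0.13) and 0.042 (SE 0.11), and Il6 had very low signal, 2.41 ± 0.079 for vehicle and 2.45 ± 0.058 for OSU-CG5 (n = 3). All 5 endothelial markers, which share the vessel site of Icam1, were below 0. They averaged 5.51 to 5.73 in vehicle and 5.25 to 5.44 with OSU-CG5, without overlap, as for the mean of all genes. Their part was not tested.

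All 16 measured genes of prostaglandin and leukotriene synthesis and signalling, of 18 listed, were below 0. Of all genes 65.7% were, and of those with a mean under log2 6, the range of 8 of the 16, 79.4% were. The list had a median of -0.20 and 3 genes lower at an unadjusted p under 0.05. The prostaglandin D synthase Hpgds, abundant in mast cells, differed by -0.50 (SE 0.14; limma adjusted p = 0.184), Alox5ap, which hands arachidonic acid to the leukotriene-forming enzyme, by -0.50 (SE 0.17), and the prostacyclin synthase Ptgis by -0.37 (SE 0.14). Of 8 mast cell and eosinophil markers 7 were below 0, and their mean was 4.08 to 4.36 in vehicle and 3.94 to 4.16 with OSU-CG5, overlapping ranges, and its part was not tested. Among 12 genes of nitric oxide and arginine metabolism 7 were below 0 and the median was -0.064. That median was 0.0016 without OSU-CG5 replicate 3 and -0.12 without vehicle replicate 1. Ddah2, which clears an inhibitor of nitric oxide synthases, differed by -0.44 (SE 0.11; limma adjusted p = 0.171) and was the single gene of that list with an unadjusted p under 0.05. The endothelial synthase Nos3 and the arginase Arg1 differed by -0.29 (SE 0.17) and -0.34 (SE 0.20).

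**Figure D4:**
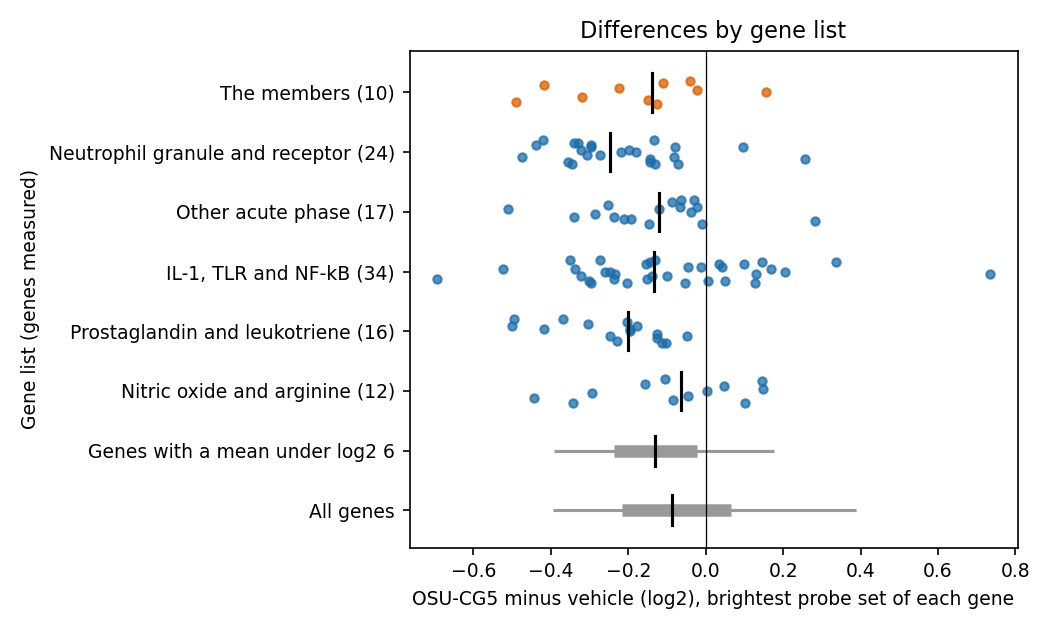
Log2 difference, OSU-CG5 minus vehicle (x axis), of each gene at its brightest probe set, by list (y axis, with the number of genes measured); points are genes, black lines are medians, and for the background rows the thick bar spans the 25th to 75th and the thin line the 5th to 95th percentile. The median of the members, -0.14, lies beside that of genes with a mean under log2 6, -0.13.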

How the data were processed

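The authors deposited log2 signals, a value per probe set for each of 6 Affymetrix arrays, made with RMA per the submitters' processing notes. The program that ran it is not given in the sources used here. RMA draws the arrays towards a common distribution, so a shift of most genes in 1 direction is partly removed, and raw intensities were not used here. The deposited values still differed in distribution. The upper quartile over all probe sets was 6.97 to 7.05 on the vehicle arrays and 7.07 to 7.15 on the OSU-CG5 arrays. The part of this in the member differences was not tested. Groups came from the tissue source labels, and replicate numbers only name mice. The 3 samples of a group were from separate mice per the series' design text.

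OSU-CG5 minus vehicle was tested with limma 3.58.1 in R 4.3.3 (lmFit and eBayes, no covariate, no filter), adjusted by Benjamini-Hochberg over the 45037 probe sets that are not controls, at 0.05, after checking on simulated data. SE is moderated, and intervals are 95%. The precision is limited by the number of arrays. The 10 members, the lists and the rule for named genes (every member probe set, the 3 genes of smallest unadjusted p per list, and Mpo, Csf3, Tnf, Il6 and Ly6g) were chosen with earlier results of these data known. Sequences came from RefSeq, whose promoter table held 9 of the 10 members. Alternatives were cyclic loess, median centring, a mean of at least log2 6, an intensity trend with robust prior, array weights, the brightest probe set of each gene alone, and each array left out in turn.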

Additional observations from a re-analysis of the deposited data

How the results depend on the processing

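No member probe set passed limma's adjusted threshold under cyclic loess, median centring, a trend with robust prior, array weights or 1 probe set per gene; leaving out arrays gave 0 to 1, the 1 being Saa2 without vehicle replicate 3. At an unadjusted p under 0.05 there were 2 members with array weights and 2 with the trend and robust prior, the second being Ptgs2 1417263_at, and 1 to 2 without single arrays. No member had a mean of log2 6, so that filter gave no value for them. The members' median difference was -0.045 with cyclic loess and -0.20 to -0.084 without single arrays; against it, genes with a mean under log2 6 were a background chosen after seeing the data. Signs turned for Nos2 (0.058 with cyclic loess, -0.13 to 0.13 without single arrays), Ptgs2 1417262_at (0.025 with array weights, 0.059 with cyclic loess, -0.11 to 0.048), S100a9 (-0.30 to 0.13) and Saa3 (-0.74 to 0.0073). Over all probe sets the adjusted count was 822 with array weights, 400 without vehicle replicate 2 and 885 without vehicle replicate 3, and 0 otherwise. The unadjusted count was 2661 with 1 probe set per gene and 3360 with a mean of at least log2 6, fewer probe sets being tested, and 4663 to 9692 without single arrays.

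The filter of a mean of at least log2 6 left 4 neutrophil genes, 3 other acute phase genes, 21 IL-1 and NF-kB genes and 8 prostaglandin genes. Unadjusted counts among these were 0, 0, 1 and 1, and values with the filter describe those genes alone. Array weights gave 2 for the nitric oxide list. Without single arrays the unadjusted counts of the full lists were 3 to 6, 1 to 3, 2 to 7, 1 to 4 and 1 to 1, in the same order. The neutrophil median was -0.19 with array weights, -0.15 with cyclic loess and -0.34 with the filter (-0.27 to -0.17 without single arrays). The acute phase median was -0.051 with cyclic loess and -0.19 with the filter (-0.19 to -0.10). The IL-1 and NF-kB median was -0.071 with array weights and 0.0066 with the filter (-0.18 to -0.059), and without single arrays the prostaglandin median was -0.28 to -0.15 and the nitric oxide median -0.12 to 0.0016. No gene of these lists passed adjustment in any fit. No paired analysis was possible because the replicate numbers only name the mice.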
